A study of Mus musculus with 6 samples.

Results

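The late granule and S100 genes of maturing neutrophils are 10 genes, taken by their function as contents of the specific and gelatinase granules, S100 proteins of the cytosol or a stefin: Ngp, Camp, Ltf, Lcn2, S100a8, S100a9, Mmp8, Mmp9, Stfa2 and Cd177. They were read from 22180 measured genes, and each of the 10 has 1 probe set on the array that carries a single gene symbol. The RNA came from LSK cells, the lineage-negative, Sca-1-positive, c-Kit-high cells of mouse bone marrow, which hold the stem cells and multipotent progenitors. The 2 groups were 3 arrays of WT mice and 3 arrays of mice with a tamoxifen-inducible conditional knockout of Ctcf, the gene of the insulator and loop-anchor protein CTCF. All mice were males of 8 weeks, injected with 2 mg of tamoxifen daily for 3 days and used 24 hours after the last dose. The design text speaks of CreER mice where the sample labels say WT, and no source used here settles if the control mice had a Cre transgene or which promoter drove it. The number of mice behind an array is not given either.

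A neutrophil makes its granules in sequence. Promyelocytes fill the primary, or azurophil, granules with myeloperoxidase and serine proteases, and myelocytes and later stages make the specific granules (lactoferrin, lipocalin 2, cathelicidin) and then the gelatinase granules, with C/EBP-epsilon as the transcription factor best known for switching on the later genes. S100a8 and S100a9 encode the calcium-binding pair calprotectin, which fills the neutrophil cytosol. These genes belong to cells past the LSK stage, and lineage depletion is meant to remove such cells. In RNA from a sorted population, fewer cells of a type and less RNA per cell cannot be told apart.

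The stretches upstream of the start sites of Ngp, Camp and Ltf are shown first, since these 3 genes had the most negative differences of the 10 and lie near each other on chromosome 9. The sequences are RefSeq's for build GRCm38.p6, read 5′ to 3′ on the gene's strand over the 250 bases before the start. Capitals mark matches to the C/EBP motif TTGCNNAA on either strand.
Ngp, chr9:110419558-110419807, plus strand: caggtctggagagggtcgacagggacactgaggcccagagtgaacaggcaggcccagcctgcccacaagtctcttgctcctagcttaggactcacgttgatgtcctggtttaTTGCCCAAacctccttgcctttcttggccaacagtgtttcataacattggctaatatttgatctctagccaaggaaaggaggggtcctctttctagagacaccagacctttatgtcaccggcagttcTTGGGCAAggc
Camp, chr9:109849457-109849706, minus strand: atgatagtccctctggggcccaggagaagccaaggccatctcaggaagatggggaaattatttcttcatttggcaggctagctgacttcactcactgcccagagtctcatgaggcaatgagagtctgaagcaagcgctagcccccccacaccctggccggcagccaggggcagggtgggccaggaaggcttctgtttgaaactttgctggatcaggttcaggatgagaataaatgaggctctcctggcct
Ltf, chr9:111019042-111019291, plus strand: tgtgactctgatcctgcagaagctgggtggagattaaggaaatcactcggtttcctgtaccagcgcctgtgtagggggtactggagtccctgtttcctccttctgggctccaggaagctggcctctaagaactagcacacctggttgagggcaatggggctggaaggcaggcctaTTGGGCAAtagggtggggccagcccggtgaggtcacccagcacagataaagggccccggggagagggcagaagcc

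Promoter sequence was on hand for 9 of the 10 genes. The C/EBP motif was found upstream of 5 of these 9, which are Ngp, Ltf, Lcn2, S100a9 and Mmp8, against 9.56% of 32851 promoters searched over the same length. Ngp has 2 matches, which begin 138 and 11 bases before the start, and Ltf has 1, which begins 75 bases before it. The matches of the other 3 genes are given with the bases around them.
Lcn2, chr2:32387932-32387971, minus strand: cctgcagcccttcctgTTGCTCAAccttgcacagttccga
S100a9, chr3:90695932-90695971, minus strand: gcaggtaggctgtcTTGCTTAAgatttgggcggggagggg
Mmp8, chr9:7558394-7558428, plus strand: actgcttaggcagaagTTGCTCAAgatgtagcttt

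The PU.1 motif GAGGAAG, on either strand, was found upstream of Lcn2, S100a8 and Mmp8, 3 of 9 against 10.6% of all promoters, and no match shared bases with a C/EBP match. The CTCF core CNAGGNGGC was found in 0 of the 9 windows and in 7.06% of all promoters. These are letter matches in short windows, not measured binding.

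As a check of the labels, Ctcf stood at log2 levels of 8.35, 8.59 and 8.73 on the WT arrays and 7.58, 7.78 and 7.86 on the knockout arrays, with no overlap. The difference was -0.82 (SE 0.13, limma adjusted p = 0.104), which leaves 56.7% of the WT level. Array medians over all probe sets lay between 5.99 and 6.07, so the arrays were on a like scale. Levels are log2 probe set summaries with no detection call, and a level of one gene cannot be set against that of another. As a rough scale for dim signal, the mean levels of 1088 olfactory receptor genes, whose transcripts are not expected in marrow, had a median of 4.02 and a 95th percentile of 6.05.

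None of the 10 genes passed the test. By limma with Benjamini-Hochberg adjustment over all genes, 0 of 10 were called at an adjusted p under 0.05, where 16 of 22180, or 0.0721%, were called in all. At an unadjusted p under 0.05, 6 of the 10 were lower in the knockout (Ngp, Camp, Ltf, S100a9, Mmp9 and Cd177), where 3.08% of all genes were, and 1 was higher (Stfa2), where 5.03% were. Differences were negative for 8 of 10 genes and for 45.3% of all genes, and their median was -0.52, against 0.02 over all genes. Every knockout array lay below every WT array for 3 of the 10 (Ngp, Mmp9 and Cd177, against 5.32% of all genes) and above for 1 (Stfa2, against 7.96%). These shares are no test of the list, since the 10 genes were chosen with earlier results of these data known. Ngp, Camp, Ltf and S100a9 also had like deviations from array to array, so the counts are not of independent genes. Leaving out WT replicate 2 moved the median to -1.06, while it was -0.27 when WT replicate 1 was dropped and -0.29 when knockout replicate 3 was. With 3 arrays against 3, the exact two-sided permutation test of a single gene cannot give a p under 0.1.

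**Figure D1:**
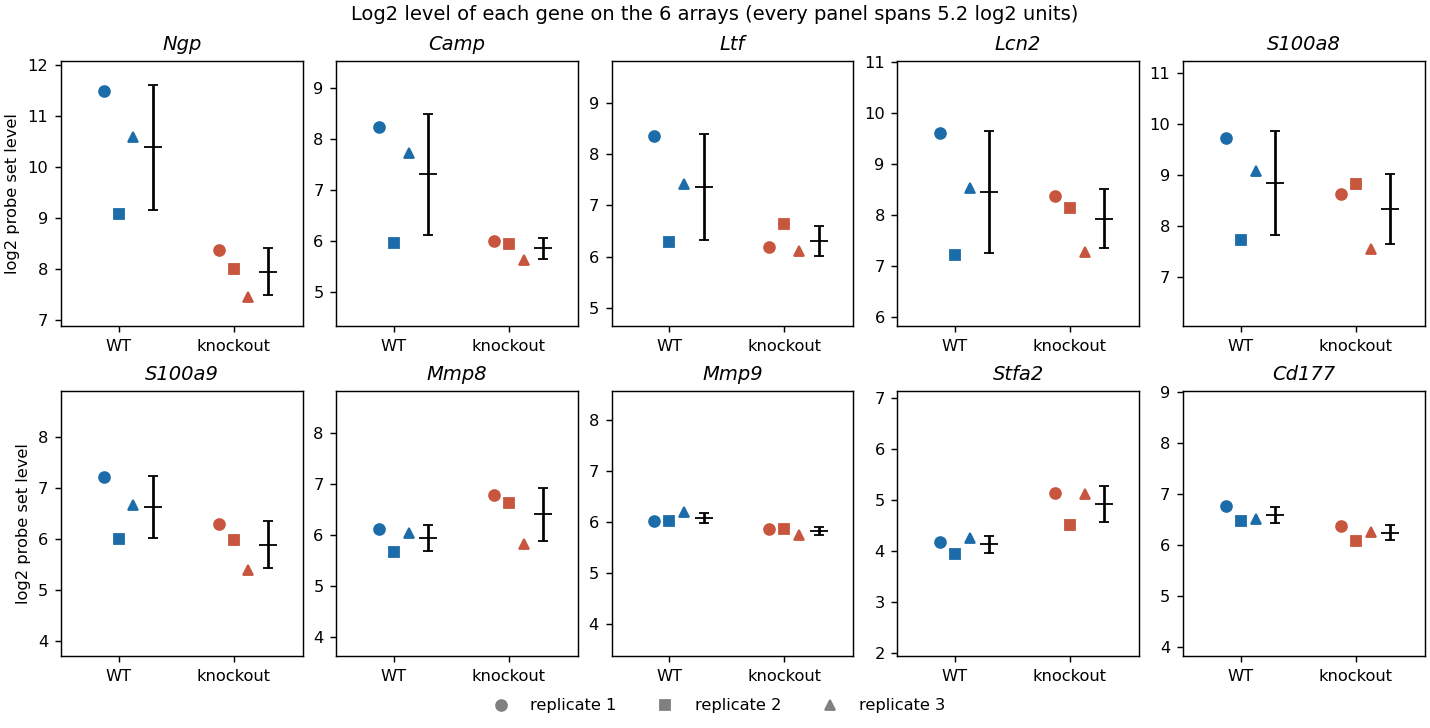
Log2 probe set level (y axis) of the 10 genes in WT (blue) and knockout (red), with 1 symbol per array by replicate number and the mean and SD (n = 3) beside each group; every panel covers the same span. Ngp lies between 9.08 and 11.49 in WT and between 7.46 and 8.37 in the knockout, while WT replicate 2 lies below at least 1 knockout array for Camp, Ltf, Lcn2, S100a8 and S100a9.

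Among the specific granule genes, Ngp, which encodes the cystatin-like neutrophilic granule protein, stood at 11.49, 9.08 and 10.59 on WT replicates 1 to 3 and at 8.37, 8.01 and 7.46 on the knockout replicates. All knockout arrays were below the lowest WT array, and the WT arrays differed among themselves by 2.42. The means were 10.39 ± 1.22 in WT and 7.95 ± 0.46 in the knockout (SD, n = 3 each). The difference of -2.44 (SE 0.52, 95% confidence interval -3.63 to -1.25) leaves 18.4% of the WT level, with a limma adjusted p of 0.241. The exact permutation p was 0.1. With 1 array left out at a time the difference of Ngp lay between -3.10 and -1.89. Without WT replicate 2 its limma adjusted p was 0.05002, just over the threshold.

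Camp, which encodes the antimicrobial peptide cathelicidin, was at 8.23, 5.97 and 7.73 in WT and at 5.999, 5.94 and 5.62 in the knockout. WT replicates 1 and 3 were high and WT replicate 2 was at the level of the knockout arrays, so the groups overlapped. All 3 knockout arrays and WT replicate 2 were under the 95th percentile of the olfactory receptor genes. The difference was -1.46 (SE 0.48, 95% confidence interval -2.55 to -0.36, limma adjusted p = 0.508). Without WT replicate 2 the difference of Camp was -2.13 with a limma adjusted p of 0.0381, the single case in which any of the 10 genes passed when 1 array was left out.

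Ltf, the gene of the iron-binding protein lactoferrin, had levels of 8.36, 6.28 and 7.42 in WT and of 6.18, 6.64 and 6.10 in the knockout. WT replicate 2 again lay between knockout arrays. The difference was -1.04 (SE 0.43, 95% confidence interval -2.03 to -0.06, limma adjusted p = 0.593), and it was -0.54 without WT replicate 1 and -1.58 without WT replicate 2. Lcn2, which encodes the siderophore-binding protein lipocalin 2, was at 9.61, 7.22 and 8.53 in WT and at 8.37, 8.15 and 7.28 in the knockout. The groups overlapped, and WT replicate 2 was the lowest of the 6 arrays. The difference of Lcn2 was -0.52 (SE 0.53, 95% confidence interval -1.73 to 0.68, limma adjusted p = 0.869) and turned to 0.06 without WT replicate 1, so its direction rests on that array.

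Cd177 encodes a surface glycoprotein of the specific granules and plasma membrane that binds PECAM1. Its levels were 6.77, 6.48 and 6.52 in WT and 6.38, 6.08 and 6.27 in the knockout. The groups did not overlap, and the nearest arrays, WT replicate 2 and knockout replicate 1, were close. The difference was small, -0.34 (SE 0.13, 95% confidence interval -0.64 to -0.05, limma adjusted p = 0.556), or 78.7% of the WT level. It lay between -0.41 and -0.25 with 1 array left out.

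Of the calprotectin pair, S100a8 was at 9.73, 7.74 and 9.09 in WT and at 8.63, 8.82 and 7.55 in the knockout. WT replicate 2 and knockout replicate 3 were the low arrays, 1 in each group. The difference was -0.52 (SE 0.49, 95% confidence interval -1.63 to 0.60, limma adjusted p = 0.860) and reached -1.07 without WT replicate 2 and -0.08 without WT replicate 1. S100a9 was at 7.23, 6.01 and 6.66 in WT and at 6.30, 5.99 and 5.39 in the knockout. Its lowest array was the same knockout replicate 3, and WT replicate 2 fell between the knockout arrays. The difference of S100a9 was -0.74 (SE 0.32, 95% confidence interval -1.45 to -0.02, limma adjusted p = 0.599), and it was -0.44 without WT replicate 1, -0.49 without knockout replicate 3 and -1.05 without WT replicate 2. For S100a9 1 WT array and 2 knockout arrays were under the 95th percentile of the olfactory receptor genes.

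The neutrophil collagenase gene Mmp8 had the opposite sign to most of the others. Its levels were 6.12, 5.66 and 6.03 in WT and 6.79, 6.62 and 5.81 in the knockout. Knockout replicate 3 lay between WT arrays. The difference was 0.47 (SE 0.25, 95% confidence interval -0.09 to 1.03, limma adjusted p = 0.678), and it was 0.28 without knockout replicate 1 and 0.77 without knockout replicate 3. For Mmp8 2 WT arrays and 1 knockout array were under the 95th percentile of the olfactory receptor genes. Mmp9, which encodes gelatinase B of the gelatinase granules, was at 6.02, 6.02 and 6.20 in WT and at 5.85, 5.87 and 5.74 in the knockout. The groups did not overlap, yet all 6 arrays were within 0.45 of each other and 5 of them were under the 95th percentile of the olfactory receptor genes. The difference of Mmp9 was -0.26 (SE 0.11, 95% confidence interval -0.50 to -0.02, limma adjusted p = 0.592).

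Stfa2, which encodes stefin A2, an inhibitor of cysteine proteases, was at 4.18, 3.94 and 4.26 in WT and at 5.14, 4.50 and 5.11 in the knockout. Every knockout array was above every WT array, and the WT mean of 4.13 was close to the median of the olfactory receptor genes. The difference was 0.79 (SE 0.18, 95% confidence interval 0.37 to 1.20, limma adjusted p = 0.284), between levels that are all under the 95th percentile of those genes. It lay between 0.68 and 0.99 with 1 array left out. The stefin A genes are near-identical copies in a cluster, so the probe set may not read Stfa2 alone. The probe sets named for its neighbours Stfa1, Stfa2l1 and Stfa3 differed by -0.11, -0.22 and -0.10.

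**Figure D2:**
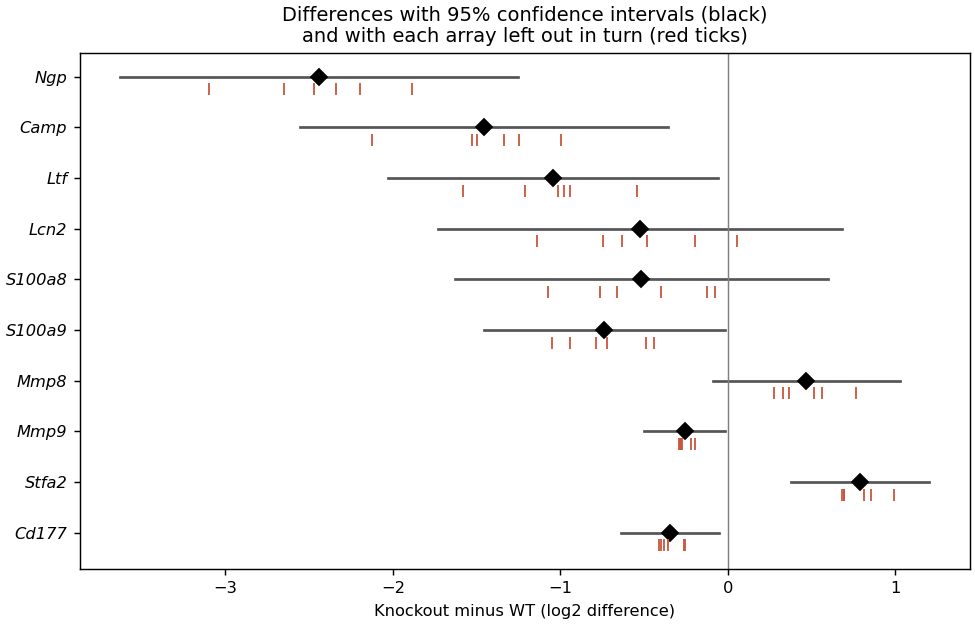
Knockout minus WT on the log2 scale (x axis) for each of the 10 genes (y axis): diamonds are the fitted differences, black lines their 95% confidence intervals, unadjusted for the number of genes, and red ticks the 6 differences with 1 array left out. The interval excludes 0 for 7 genes, and among the ticks that of Lcn2 without WT replicate 1, at 0.06, is the 1 that crosses 0.

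From array to array within a genotype, 6 of the 10 genes had like deviations. The 15 pairs among Ngp, Camp, Ltf, Lcn2, S100a8 and S100a9 had Pearson correlations of their deviations from the group means between 0.82 and 0.99 over the 6 arrays, with a median of 0.94. WT replicate 1 was above its group mean by 1.11 for Ngp, 1.16 for Lcn2 and 0.60 for S100a9, and WT replicate 2 was below by values of -1.31, -1.23 and -0.63. In the knockout, replicate 3 was the lowest array for all 6 genes. The other 30 pairs of the 10 genes had correlations between -0.31 and 0.86, with a median of 0.38, and the deviations of Mmp9, Stfa2 and Cd177 lay between -0.41 and 0.22. These 6 genes were set apart after their values were seen, and the correlations rest on 6 arrays with both group means removed.

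**Figure D3:**
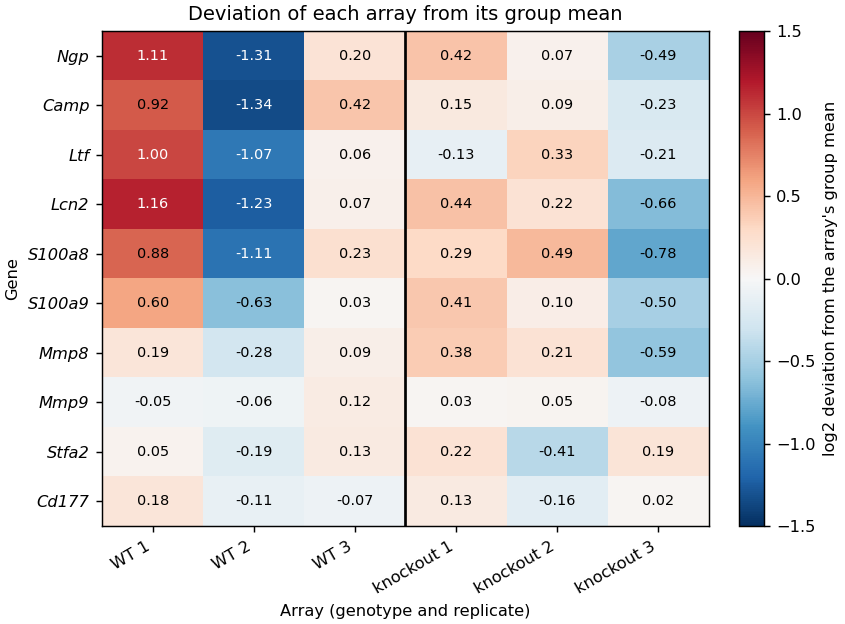
Log2 deviation of each array from the mean of its own group (color and printed value) for the 10 genes (rows) on the 6 arrays (columns). The first 6 rows share their extremes, with WT replicate 1 high (0.60 to 1.16), WT replicate 2 low (-1.34 to -0.63) and knockout replicate 3 low (-0.78 to -0.21).

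Among the 4 of these genes with every array above the 95th percentile of the olfactory receptor genes, the mean knockout level was 18.4% of the WT level for Ngp, 48.5% for Ltf, 69.6% for Lcn2 and 69.9% for S100a8. The confidence intervals of the 4 differences overlap, and differences between these genes were not tested. In the knockout Ltf and S100a8 were highest in replicate 2 and the other 4 of the 6 genes in replicate 1.

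By likeness to Ngp over all 6 arrays, among 391 other genes with an SD of at least 0.5, the 6 highest Pearson correlations were those of Mirlet7b (0.97), Camp (0.97), Ifi208 (0.95), D5Ertd605e (0.94), Gm5941 (0.94) and S100a9 (0.93). Of the 391, 11 exceeded 0.9, or 2.81%. The genes outside the 10 had differences between -1.11 (Ifi208) and -0.84 (Mirlet7b), and the probe sets for Mirlet7b, Ifi208 and Gm5941 were dim, at 5.41 or less on every array. Group means were left in for these correlations, so the choice itself favours genes with negative differences, as Ngp has.

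Ngp, Camp and Ltf lie in a single stretch of chromosome 9, and Mmp8 is elsewhere on that chromosome. This comparison was added after the differences were seen. Between Camp and Ltf in RefSeq's gene order 28 other genes were measured, and their median difference was -0.02, with 16 negative and 12 positive. At an unadjusted limma p under 0.05 there was 1 lower, Als2cl at -0.56 (adjusted p = 0.356), and 1 higher, Tdgf1 at 0.53 (adjusted p = 0.443), with 0 called. Of all genes 3.08% were lower and 5.03% higher at that threshold. The nearest measured genes on either side of Ngp, Ptpn23 and Klhl18, differed by -0.08 and -0.04.

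**Figure D4:**
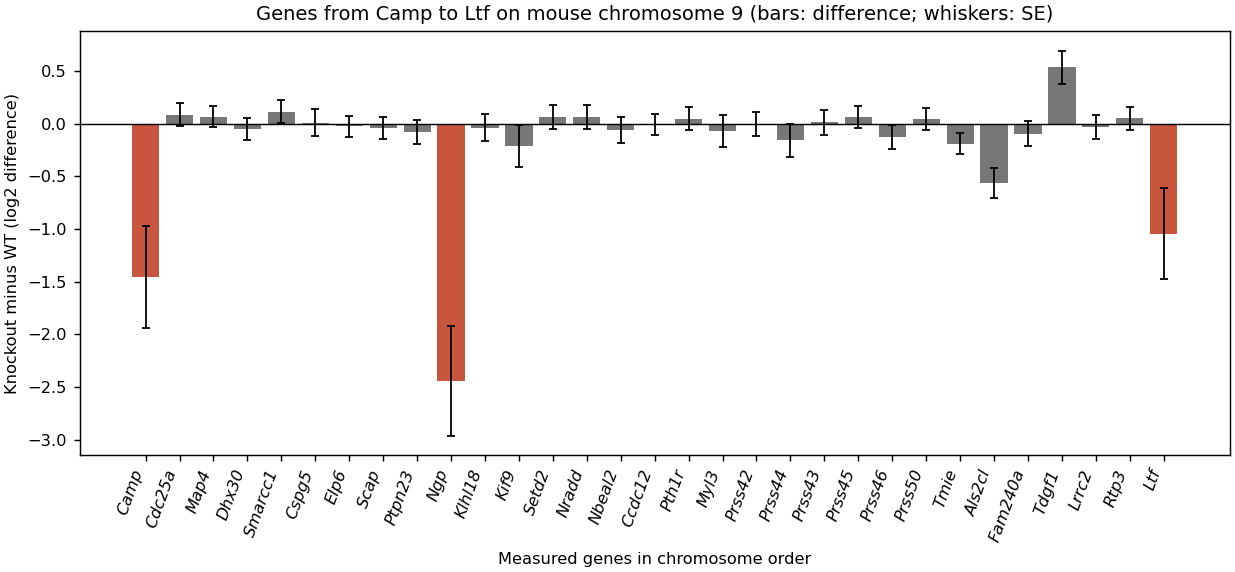
Knockout minus WT on the log2 scale (y axis; whiskers, SE of the limma fit) for the 31 measured genes from Camp to Ltf, in chromosome order and not to scale of distance (x axis). Camp, Ngp and Ltf (red) stand at -1.46, -2.44 and -1.04, and the 28 genes between them (grey) lie between -0.56 and 0.53.

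Other genes of neutrophil maturation were split between the directions. Of 29 measured further late granule and mature neutrophil genes 0 were called, 19 had negative and 10 positive differences, and the median was -0.11. At an unadjusted limma p under 0.05 there were 0 lower and 2 higher, where 3.08% and 5.03% of all genes were. The lowest difference was that of Chil3, which encodes a chitinase-like protein, at -1 (SE 0.59), with 7.86, 5.57 and 6.24 in WT and 6.40, 5.70 and 4.57 in the knockout. The highest was that of the receptor gene Trem3, at 0.89 (SE 0.31, limma adjusted p = 0.527). Ly6g, the neutrophil surface antigen recognised by Gr-1 antibodies, was at 6.35, 5.36 and 6.07 in WT and at 6.89, 5.72 and 5.92 in the knockout, a difference of 0.25 (SE 0.33). Although their differences varied, 9 of the 29 had within-group deviations correlated with those of Ngp at over 0.8, against 7.90% of all genes. Lyz2, the lysozyme gene of neutrophils and macrophages, is an example taken after the values were seen, with a correlation of 0.997 and a difference of -0.27 (SE 0.25). Over the 29 genes the median of this correlation was 0.66, and the lowest was that of Itgam, at -0.81. Of 18 primary granule and promyelocyte genes 3 had such a correlation over 0.8.

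Primary granule and promyelocyte genes had mostly the opposite sign. Of 18 measured, 13 had positive differences, the median was 0.42, and 0 were called. At an unadjusted limma p under 0.05 there were 9 higher and 0 lower, where 5.03% and 3.08% of all genes were. The list was chosen with earlier results of these data known, so this is no test of it. Elane, the neutrophil elastase gene, was at 11.53, 10.95 and 11.51 in WT and at 12.73, 12.64 and 12.24 in the knockout, and the extremes of the list were Ms4a3 at 1.40 and Serpinb1a at -0.18. The array medians of these 18 genes, each gene centred on its mean, were -0.35, -0.38 and -0.03 in WT and 0.22, 0.49 and 0.05 in the knockout. Those of the 10 late granule and S100 genes were 1.05, -0.53 and 0.37 in WT and 0.00, -0.14 and -0.80 in the knockout. The groups separated for the primary granule list and overlapped for the late granule genes.

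**Figure D5:**
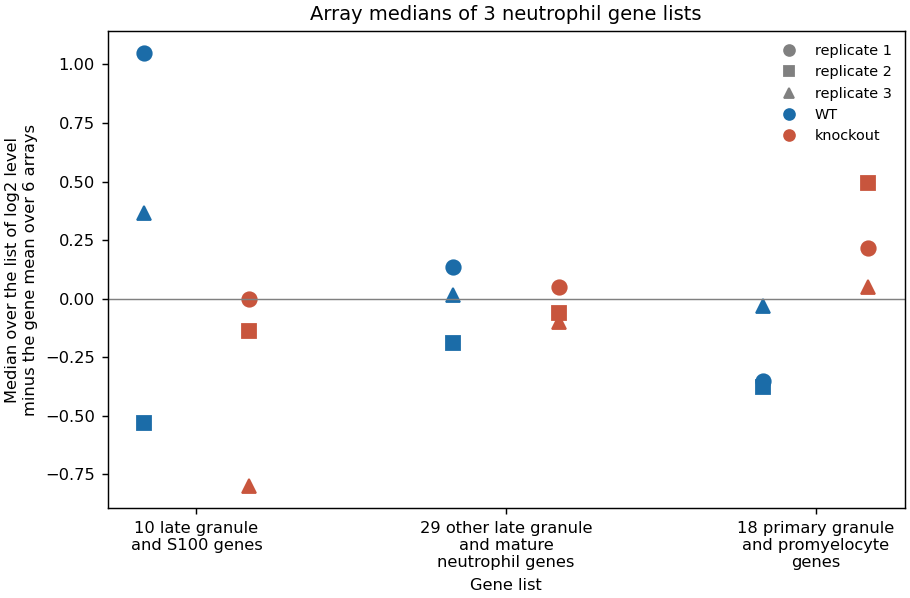
Median over each gene list of the log2 level minus the gene's mean over the 6 arrays (y axis), 1 point per array, for 3 neutrophil gene lists (x axis), WT in blue and knockout in red. For the 10 late granule and S100 genes WT spans -0.53 to 1.05 and the knockout -0.80 to 0.00; for the 18 primary granule genes all knockout arrays, from 0.05 to 0.49, lie above all WT arrays.

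The transcription factors of granulopoiesis had small differences. Of 16 measured 0 were called, 4 were positive and 12 negative, and the median was -0.06. Cebpe, the gene of C/EBP-epsilon, was at 6.91, 6.45 and 6.63 in WT and at 6.996, 7.57 and 6.96 in the knockout. All its knockout arrays were above all WT arrays, as for 7.96% of all genes. The difference of Cebpe was 0.52 (SE 0.19, limma adjusted p = 0.551). Of the 10 late granule and S100 genes 8 had the opposite sign, and 2, Mmp8 and Stfa2, had the same sign. The lowest difference among the 16 transcription factor genes was that of the AP-1 gene Junb, at -0.46.

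Receptors and partners of the 10 proteins were measured for 17 genes, of which 0 were called; 8 were positive and 9 negative, with a median of -0.02. The calprotectin receptor genes Tlr4 and Ager differed by 0.16 and -0.05, Slc22a17, which encodes a receptor of lipocalin 2, by -0.10, and Pecam1, which encodes the partner of CD177, by -0.09. Fpr2, a formyl peptide receptor that cathelicidin can activate, differed by -0.23. Its levels were 5.10, 3.48 and 4.74 in WT, where the order of the arrays is that of Ngp. In the knockout they were 4.13, 4.33 and 4.19, where it is not. All these levels were under 6.05, the 95th percentile of the olfactory receptor genes. The lowest difference in the list was that of Cd33, a sialic acid-binding receptor to which S100A9 can bind. Cd33 was at 9.45, 9.97 and 9.37 in WT and 8.58, 8.69 and 8.69 in the knockout. Its difference was -0.94 (SE 0.16, limma adjusted p = 0.115) with no overlap. The highest was P2rx7 at 0.27.

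Family relatives of the 10 genes had medians near 0. The 16 other S100 family genes had a median of 0.07, with 11 positive and 5 negative and 0 called. S100a1 was the lowest at -0.66 (SE 0.17, limma adjusted p = 0.365) and S100a5 the highest at 0.32. The 22 measured metalloproteinase and inhibitor genes had a median of 0.07, with 0 called, Mmp2 lowest at -0.30 and Mmp17 highest at 0.33. The genes of the gelatinase inhibitors Timp1 and Timp2 both differed by -0.05. Among 8 stefin and cystatin genes beside Stfa2 the differences lay between -0.22 (Stfa2l1) and 0.21 (Cst7), with 0 called.

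Markers of the sorted cells and of other cell types were read beside these values. Of the LSK markers Kit lay between 10.22 and 10.65 in WT and between 10.12 and 10.21 in the knockout, and Cd34 between 11.93 and 12.02 and between 11.78 and 12.04; 0 of the 10 genes measured in that list were called, between Flt3 at -0.42 and Slamf1 at 0.33, and Ly6a is not analysed here. Of 8 measured lineage markers 1 was called, Il7r at -2.28 (limma adjusted p = 0.00672), and the others lay between -0.23 and 0.25. Of 14 monocyte and macrophage markers 0 were called, 9 were negative and 5 positive, and summed log2 levels were 96.5 to 102.2 in WT and 96.3 to 101.4 in the knockout. Within that list C1qb, a complement gene of macrophages, had the lowest difference at -0.56, and F13a1 had the highest at 0.99. C1qb was at 8.10, 6.47 and 7.71 in WT and 7.30, 6.62 and 6.68 in the knockout. Its within-group deviations correlated with those of Ngp at 0.95, the highest such correlation of the 14 markers. Their median correlation was 0.55, and the lowest was that of Mrc1, at -0.11. Over the 10 LSK genes the median correlation with Ngp was -0.42, from Kit at -0.88 to Cd48 at 0.81. Over the 8 lineage markers it was -0.10, from Ptprc at -0.90 to Cd3e at 0.79. All 11 plasma and B cell markers were negative with 0 called, from Tnfrsf17 at -1.53 to Cd79b at -0.09. Their median difference was -0.64, against -0.52 for the 10 late granule and S100 genes. At an unadjusted limma p under 0.05 there were 8 lower and 0 higher, where 3.08% and 5.03% of all genes were. Summed levels of the 11 markers were 92.3 to 102.1 in WT and 85.0 to 93.7 in the knockout. The array medians of these markers were 0.49, 0.62 and -0.24 in WT. There replicate 3 was lowest, while Ngp was lowest in replicate 2. In the knockout the array medians were -0.03, -0.03 and -0.74, and replicate 3 was lowest for these markers and for Ngp. Of 10 basophil and mast cell markers 8 were positive and 1 was called, Hdc at 2.32 (limma adjusted p = 0.0309), Cd200r3 was the lowest at -0.23, and summed levels were 60.9 to 63.9 and 64.9 to 69.0. Of 7 erythroid markers 5 were positive with 0 called, from Tfrc at -0.18 to Car1 at 0.56, with summed levels of 53.3 to 58.5 and 55.9 to 59.5. The arrays have no detection call, so no marker can be given as absent, and the part of other cells in the differences of the late granule genes was not tested.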

How the data were processed

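Sorted LSK cells were lysed in Trizol, and biotin-labelled material from their RNA was read on 6 Affymetrix mouse arrays, per the labels' protocols. The authors deposited log2 values, 1 per probe set, made with RMA in the R package oligo, per the submitters' processing notes. No version, summary level or genome build is named in the sources used here. RMA normalizes by quantiles and compresses differences of dim probe sets.

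Of 41345 probe sets 23521 had 1 gene symbol in GEO's platform annotation, 1814 several and 16010 none here; only the first were used, with the probe set of the highest mean for each of 22180 genes and no filter on low values. Through their gene IDs 23328 were found in RefSeq's GRCm38.p6 table, with 0 symbols changed. The difference between genotypes was fitted in R 4.3.3 by limma 3.58.1 (lmFit and eBayes, group as the only term, all 6 arrays), with Benjamini-Hochberg adjustment over all genes and a threshold of 0.05. Single values were also tested by an exact two-sided permutation test. The fit was tested on simulated data. P-values measure the spread between these arrays, and precision is limited by their number.

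The 10 genes and the comparison lists were chosen with earlier results of these data known. Named genes are Ctcf, the 10, Cebpe, Ly6g, the highest and lowest difference of each list, any called list gene, the 6 genes most like Ngp, and receptors, inhibitors and neighbours beside a gene; others were named after their values were seen, among them Lyz2, Kit, Cd34, Elane, Als2cl and Tdgf1. Alternatives were trend and robust moderation, array weights, brighter genes only, a further quantile normalization, centring, averaged probe sets, every probe set, a replicate block, a threshold of 0.1 and each array left out.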

Additional observations from a re-analysis of the deposited data

How the results depend on the processing

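None of the 10 genes was called in any alternative except Camp, whose values lay between -2.13 and -0.995 with 1 array left out and which passed without WT replicate 2. Ngp kept a difference between -3.10 and -1.89 and a limma adjusted p between 0.05002 and 0.674 over 15 alternatives. Lcn2 lay between -1.14 and 0.0555 with 1 array left out and changed sign without WT replicate 1; the other 9 genes kept their sign, which had to follow for the 4 whose groups do not overlap. With array weights the median of the 10 was -0.80, and with brighter genes only, where 6 of the 10 remained, it was -0.78; the other 4 then gave no value. The count of genes called over the whole table, 16, was 25 with trend and robust moderation, 3 over all probe sets, 26 at a threshold of 0.1, and between 0 and 8 with 1 array left out. The 0 came by limma without knockout replicate 1, with 1725 genes at an unadjusted p under 0.05. The cause was not tested. With the replicate number as a block the count was 7 and no member was called, with Ngp at an adjusted p of 0.166. The labels give no pairing beyond the number: deviations of same-numbered arrays correlated at 0.29, 0.02 and -0.14. Further quantile normalization or centring moved the median of all genes by under 0.1. Each group has 3 arrays, so no search for outlying arrays was made, and dim signal limits what can be seen of Camp, S100a9, Mmp8, Mmp9 and Stfa2, each with 3 or more arrays under the 95th percentile of the olfactory receptor genes.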

Other observations

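Markers of eosinophils, another granulocyte, were read in the same way, and none passed the test. Of 8 measured eosinophil markers 7 had negative differences and 1 a positive one, with a median of -0.28 and 0 called by limma. At an unadjusted limma p under 0.05 there were 3 lower and 0 higher, where 3.08% and 5.03% of all genes were. Prg2, which encodes the major basic protein of eosinophil granules, was at 7.60, 8.41 and 7.65 in WT and at 6.68, 7.41 and 6.14 in the knockout, a difference of -1.14 (SE 0.32, limma adjusted p = 0.404). Epx, the eosinophil peroxidase gene, differed by -0.75 (SE 0.17, limma adjusted p = 0.284) and the ribonuclease gene Ear6 by -0.53 (SE 0.17, limma adjusted p = 0.477), while Prg3 was at -0.03 and Siglecf, a surface lectin gene, was the highest at 0.14. For Prg2, Epx and Ear6 every knockout array was below every WT array, as for 5.32% of all genes. Ear6 on every array and Epx on every knockout array were under 6.05, the 95th percentile of the olfactory receptor genes. WT replicate 2, the lowest WT array for Ngp, was the highest for Prg2, and knockout replicate 3 was the lowest knockout array for both. These genes were chosen from their list after their values were seen.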
